A study of Mus musculus with 2 samples.

Results

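The genes described are 9 of the SUMO pathway, taken by name from the 21000 mouse protein-coding genes with a known RefSeq transcript: Sumo2 and Sumo3, which encode SUMO proteins, Sae1 and Uba2, which encode the SUMO-activating enzyme, and Senp1, Senp2, Senp3, Senp5 and Senp6, which encode SUMO proteases. They are called the listed genes below. The series profiled NRF1 (nuclear respiratory factor 1) by chromatin immunoprecipitation and sequencing (ChIP-seq) in skeletal muscle, within a study of how the glucocorticoid receptor, the demethylase LSD1 and NRF1 share target genes in muscle wasting. The assay recovers the DNA bound by a protein with an antibody, and a peak is a place where reads of that DNA pile up beyond the control. Its labels describe 2 libraries of 1 group, wild-type skeletal muscle with the NRF1 antibody, without a treatment, age, sex or strain. The peaks came as 1 list of 3226, so no value below has a replicate error and no group was compared with another. The peaks are named after the first library, and a reporting form of the study describes the second as NRF1 input DNA, against its label.

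SUMO proteins are small relatives of ubiquitin that are joined to lysines of other proteins, many of them nuclear, where they alter binding partners, location and activity. The SAE1 and UBA2 subunits together activate SUMO, a conjugation step, often helped by a ligase, passes it to the substrate, and SENP proteases both trim the SUMO precursor and remove SUMO again. NRF1 is a transcription factor best known for nuclear genes of mitochondrial function, and it occupies many CpG-rich promoters of widely expressed genes through a palindromic site. Here that palindrome is GCGCATGCGC, and its left and right sets of 5 bases are called arms.

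NRF1 peaks lay at the promoters of both genes of the SUMO-activating enzyme and of 2 of 5 proteases, Senp2 and Senp3, and at neither SUMO gene. A promoter peak had its summit, the position of highest signal, from 1000 bp before to 100 bp after any known start of the gene. By this rule 4 of the 9 listed genes (44.4%) had a promoter peak, against 2808 of all 21000 protein-coding genes (13.4%). All 9 listed genes start in CpG-rich sequence, defined as a GC content of at least 50% and a CpG ratio of at least 0.6 within 200 bp of the most upstream start. Among the 11015 genes with such a start, 2588 (23.5%) had a promoter peak, which is the closer background for these genes. Since the list was drawn up with results of these data known, the counts were set beside these percentages and not tested.

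The sequence around 3 of the 4 promoter peaks is shown first, because the positions of the summits refer to it. Each is given from 5′ to 3′ on the strand of the gene, from RefSeq for GRCm38 (mm10), and capitals mark the 10 bases near the summit that come closest to the palindrome. The Uba2 stretch is chr7:34168591-34168665 on the minus strand, the Senp2 stretch chr16:22009294-22009431 on the plus strand, and the Senp3 site chr11:69682032-69682061 on the minus strand.
Uba2: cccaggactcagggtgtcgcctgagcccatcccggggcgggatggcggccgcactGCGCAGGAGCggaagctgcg
Senp2: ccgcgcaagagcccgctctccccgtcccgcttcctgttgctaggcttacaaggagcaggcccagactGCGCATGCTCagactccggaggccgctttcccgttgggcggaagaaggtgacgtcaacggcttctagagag
Senp3: aggcgactgtGCGCAGGCTCggctccgcgt

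The left arm is intact at all 3 sites, and the departures from the palindrome lie in the right arm. Counted from 1 at the 5′ end of the palindrome, with its base first, Senp2 carries G9T, Uba2 carries T6G and C8A, and Senp3 carries T6G and G9T. At all 3 sites the letters of the right arm, TGCGC, also begin 1 base before the capitals and overlap the intact left arm. The fourth gene with a promoter peak is Sae1.

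Sae1 encodes the smaller subunit of the activating enzyme. Its single known start is at position 16387896 of chromosome 7, on the minus strand, and the peak covered chr7:16387584-16387987. The summit at 16387842 lay 54 bp after the start, in an exon of Sae1 outside the coding sequence. The fold enrichment, which is the ratio of the signal at the summit to the control background, was 19.1, and the −log10 q was 75.6. This was the strongest peak of the listed genes, ranked 388 of the 2607 promoter peaks, and it was also the widest of the 4 at 404 bp. Within 100 bp of its summit the peak held 3 copies of the palindrome with 1 mismatch each, at +43 to +52, +61 to +70 and +67 to +76 from the start, so the last 2 overlap each other. None of the copies contained the summit, and their centres lay 6.5, 11.5 and 17.5 bp from it. No other peak of the listed genes held more than 1 copy this close to the palindrome.

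Uba2 encodes the catalytic subunit, which takes SUMO up as a thioester. It also has 1 known start, at 34168529 of chromosome 7 on the minus strand. Its peak covered chr7:34168476-34168747, 272 bp, and the summit at 34168605 lay 76 bp before the start. The fold enrichment was 11.1, equal after rounding to the median of 11.1 over all promoter peaks, and the −log10 q was 22.7. The summit fell inside the capitals of the Uba2 stretch, at −81 to −72 from the start, 0.5 bp from their centre, although this copy has 2 mismatches. No copy with fewer was found within 100 bp of the summit. The same stretch also reads GGGCGG, the GC box, at −102 to −97 and ATGGCG, the core of a YY1 site, at −95 to −90. The 2 genes of the activating enzyme therefore both had a peak, but that of Sae1 ranked 388 and that of Uba2 1321 of 2607 by fold enrichment.

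Senp2 encodes a protease of the nuclear envelope and nuclear pore. Its start is at 22009484 of chromosome 16 on the plus strand, and its peak covered chr16:22009195-22009489, 295 bp. The summit at 22009354 lay 130 bp before the start, the farthest upstream of the 4. The fold enrichment was 12.7 and the −log10 q 31.2, which placed the peak at rank 1074. Senp2 was the listed gene besides Sae1 with a copy at 1 mismatch near the summit. This copy lay at −123 to −114, with its centre 11.5 bp from the summit, and a second copy with 2 mismatches lay at −188 to −179, near the 5′ end of the printed stretch. Downstream of the capitals the stretch reads a GC box at −88 to −83 and TGACGTCA, the full cAMP response element, at −75 to −68. This 8-base element was found in 1 of the 8 listed genes that the RefSeq promoter table holds, against 2.62% of all genes in that table and 3.85% of those with a promoter peak.

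Senp3 encodes a nucleolar protease that acts mainly on SUMO2 and SUMO3. It has known starts at 69682084 and 69681970 of chromosome 11, on the minus strand. The peak covered chr11:69681958-69682212, 255 bp, the narrowest of the 4, and its summit at 69682045 lay 39 bp after the upstream start. The fold enrichment of 9.55 was the lowest of the 4, with a −log10 q of 23.3 and rank 1618, and it lay between the first quartile of promoter peaks (7.9) and their median. As at Uba2, the summit fell inside a copy with 2 mismatches, at +33 to +42, with its centre 1.5 bp away. The start of Tnfsf13os, on the opposite strand, lies 52 bp from that of Senp3, at 69682032, so the summit is in the promoter of both genes. From 1 peak, occupancy for Senp3 and for Tnfsf13os cannot be told apart.

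**Figure D1:**
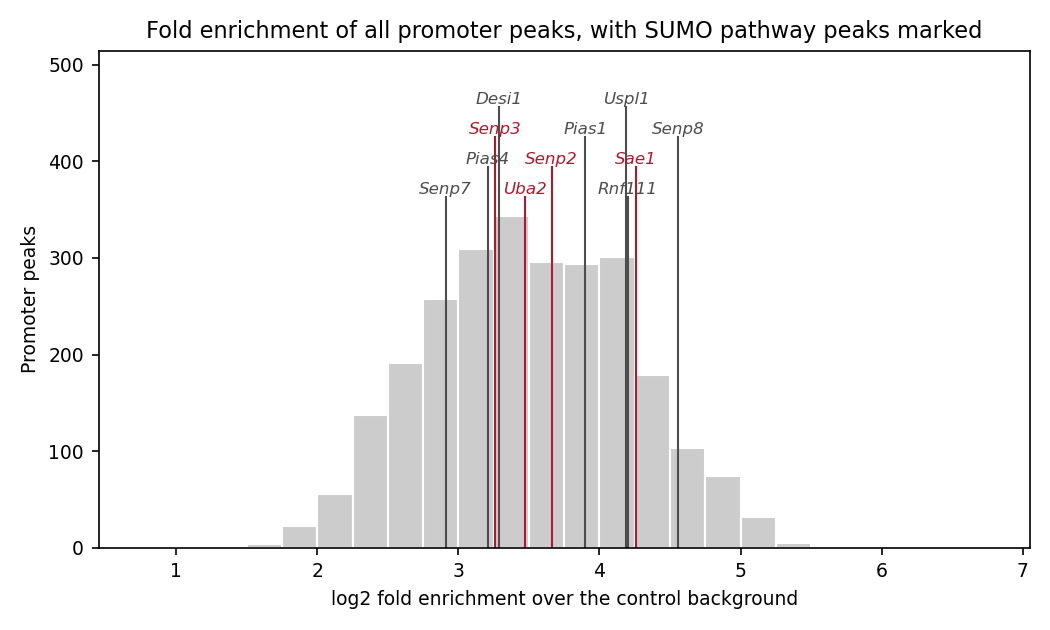
Histogram of log2 fold enrichment over all 2607 promoter peaks, with lines at the peaks of the listed genes (red) and of other SUMO pathway genes (grey); the line heights carry no value. Senp3 (9.55-fold), Uba2 (11.1-fold) and Senp2 (12.7-fold) lie between the quartiles of 7.9 and 16.4, and Sae1 (19.1-fold) lies above the upper one.

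The remaining 5 listed genes had no summit in a promoter, and for each of them the nearest summit in the list lay in the promoter of another gene. The genes holding those summits were read off after their values were seen. A list of called peaks does not show enrichment that stayed under the caller's threshold, so these genes are described by distance and sequence and not as unoccupied.

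Both SUMO genes were in this group. Sumo3 had the closest summit of the 5, 24417 bp before its first start, which was the next value outside the promoter window after the +54 of Sae1 and the −130 of Senp2 inside it. That summit lay in an exon of Pttg1ip outside the coding sequence, 25 bp after its start, with a fold enrichment of 30.4. Known Sumo3 starts lie at 77606097, 77606598 and 77613709 of chromosome 10 on the plus strand, and none of the 3 had a summit in its promoter. Sumo2 has 1 known start, at 115536230 of chromosome 11 on the minus strand, and its nearest summit lay 60692 bp downstream, at the promoter of Armc7, with a fold enrichment of 6.97.

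Among the proteases, Senp1 processes SUMO precursors and removes SUMO in the nucleus. Its starts are at 98093569 and 98093375 of chromosome 15 on the minus strand, and the nearest summit lay 52170 bp before it, at Asb8 (fold enrichment 9.29). The start of Pfkm, the muscle phosphofructokinase, lies 786 bp from that of Senp1 on the opposite strand, and no summit lay between these 2 starts. Senp5, the nucleolar relative of Senp3, starts at 32003287 of chromosome 16 on the minus strand, and its nearest summit was 96500 bp away, in the promoters of Cep19 and Pigx. Senp3 and Senp5 thus share location and substrate preference but differed in the list, one with a promoter peak and one without. Senp6, which trims SUMO chains, starts at 80066903 of chromosome 9 on the plus strand, and its nearest summit was 273320 bp away, in the promoters of Tmem30a and 4930429F24Rik.

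Set against all protein-coding genes without a promoter peak, whose median nearest summit was 186975 bp away, 4 of the 5 were nearer than the median. A nearer summit was found for 11.8% of those genes in the case of Sumo3, 22.8% for Senp1, 25.5% for Sumo2 and 34.9% for Senp5. For Senp6 it was 58.4%, so Senp6 was the one beyond the median. The comparison was not limited to genes with a CpG-rich start, the closer background for these 5, so no nearness particular to them is read from it.

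**Figure D2:**
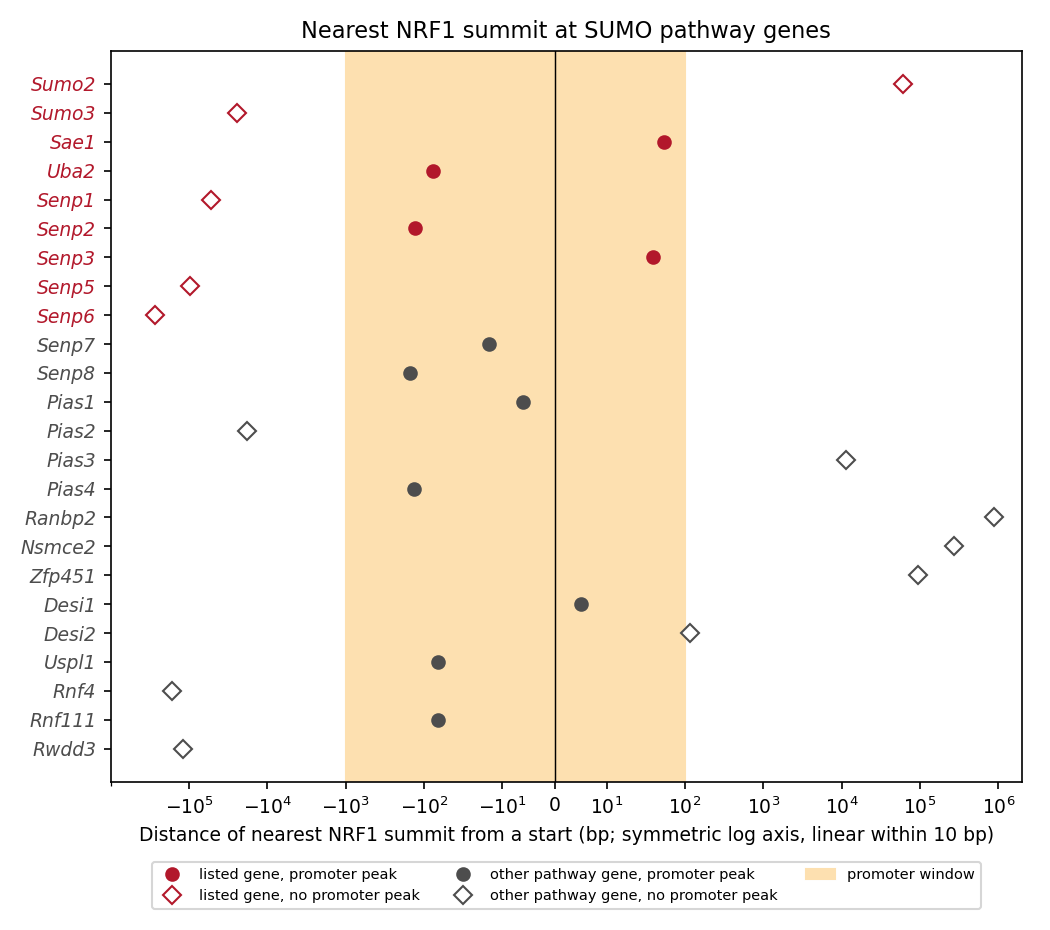
Distance in bp of the nearest NRF1 summit from a known start, for the listed genes (red) and other SUMO pathway genes (grey), on a symmetric log axis that is linear within 10 bp; filled circles have a promoter peak and the shaded band is the promoter window. The 4 promoter summits of the listed genes lie within 130 bp of a start, and the next is 24417 bp away.

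The listed genes without a peak were then searched for the palindrome in the RefSeq promoters, which run from 250 bases before to 50 after a start. For each the closest 10 bases are printed in capitals with 10 bases to either side, on the strand of the gene, to show how far they depart from the sites above. The positions are chr11:115536367-115536396 (minus strand) for Sumo2, chr10:77606072-77606101 (plus strand) for Sumo3, chr15:98093445-98093474 (minus strand) for Senp1, chr16:32003329-32003358 (minus strand) for Senp5 and chr9:80066669-80066698 (plus strand) for Senp6.
Sumo2: ggcccaggcgGCGGAGGCGCgggccgtggg
Sumo3: ccgccccgtgACGCATTCGCaaccgtcctg
Senp1: tcgccacctcGCGCAGGCGTcccgcgagcc
Senp5: ctgctttgtgGCGCCTGGGCcgctcagggt
Senp6: gccggcaggcTGGCAAGCGCtcgcaggccg

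Against the palindrome, Sumo2 carries C4G and T6G, Sumo3 G1A and G7T, Senp1 T6G and C10T, Senp5 A5C and C8G, and Senp6 G1T, C2G and T6A. Of these 5 only Senp1 has an intact left arm in the printed copy. Its copy begins with the same 7 bases, GCGCAGG, as those of Uba2 and Senp3. In contrast with Uba2, Senp2 and Senp3, the string TGCGC does not begin 1 base before the capitals at Senp1. Among the other pathway genes printed below, all with a promoter peak, Rnf111 and Desi1 also lack it there, and Senp7, Senp8 and Pias1 have it. How often it occurs there over all promoters was not counted. Sumo3 holds 2 copies with 2 mismatches, and the one not printed has an intact arm.

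Over the 16853 protein-coding genes in the promoter table, the share with a promoter peak was lower the further the best copy departed from the palindrome. It was 91.0% of 256 genes with a full copy, 80.6% of 1401 genes at 1 mismatch, 22.8% of 2530 genes at 2, 4.76% of 6823 genes at 3 and 1.23% of 5843 genes at 4 or more. Senp2 was the listed gene in the class with 1 mismatch and had a peak. The class with 2 mismatches held Sumo2, Sumo3, Uba2, Senp1, Senp3 and Senp5, of which Uba2 and Senp3 (2 of 6) had one. Senp6, at 3 mismatches, had none. The table matched 8 of the 9 listed genes, all but Sae1. The count of 2 in 6 stands beside the 22.8% of its class.

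**Figure D3:**
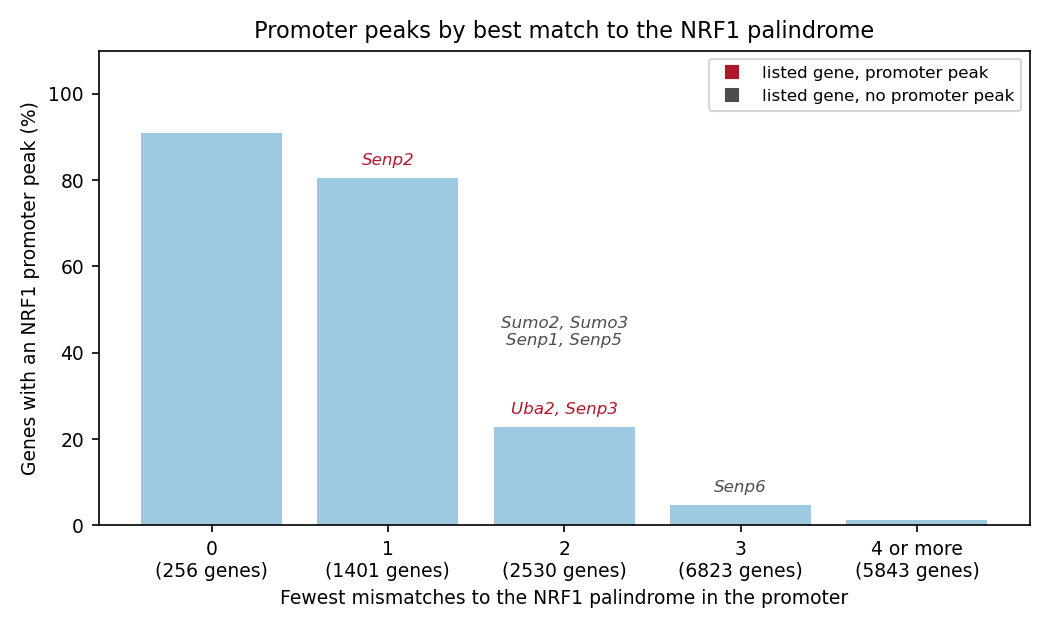
Percentage of protein-coding genes with an NRF1 promoter peak (bars, from 0) by the fewest mismatches to the palindrome in the promoter, with the listed genes written at their class in red (promoter peak) or grey (none); the height of a name carries no value. The bars fall from 91.0% at no mismatch to 22.8% at 2 mismatches, the class of 6 listed genes.

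The class with 2 mismatches was split by where the mismatches fall, a split made after the sequences had been seen. Where 1 arm was intact, 359 of 1215 genes (29.5%, Wilson 95% interval 27.0 to 32.2) had a promoter peak, and where each arm had a mismatch, 219 of 1315 did (16.7%, 14.7 to 18.8). The intervals cover counting error over genes only. Uba2, Senp3, Senp1 and Sumo3 belong to the former kind, and the first 2 of these had a peak. Sumo2 and Senp5 belong to the latter, and neither had one.

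The exact 10 bases of each gene were also looked up in the other promoters, counting genes with no better copy. For the 10 bases of Senp2, 84 of 118 genes had a promoter peak (71.2%, Wilson interval 62.4 to 78.6). The share was 41.5% of 53 genes for those of Senp3 (29.3 to 54.9) and 27.3% of 44 genes for those of Uba2 (16.3 to 41.8). For genes without a peak it was 8.33% of 96 genes for the bases of Sumo2 (4.28 to 15.6) and 8.93% of 56 for those of Senp5 (3.87 to 19.3). Senp1 stood apart from these: 53 of the 69 genes with its 10 bases had a promoter peak (76.8%, 65.6 to 85.2), although Senp1 itself had none. That share was above those for Uba2 and Senp3, with no overlap of the intervals, and its interval overlapped that for Senp2. The 10 bases of Sumo3 and Senp6 occurred in too few genes to compare, 2 and 7.

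Among all 2607 promoter peaks, 55.0% had a best copy at 1 mismatch within 100 bp of the summit and 25.0% at 2, so the listed genes fall in the commonest classes. Median fold enrichment was 12.7 for peaks at 1 mismatch, with quartiles of 9.11 and 17.5, and 9.1 for peaks at 2, with quartiles of 6.73 and 12.6. Sae1 (19.1) was above the upper quartile of its class and Senp2 (12.7) at the median. Uba2 (11.1) and Senp3 (9.55) were between the median and the upper quartile of theirs. The summit lay inside the best copy in 20.2% of peaks at 2 mismatches, and it did so at both Uba2 and Senp3.

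GC content within 200 bp of the start was 59.9% at Sae1, 66.3% at Senp3, 67.3% at Senp2 and 68.3% at Uba2. The genes without a peak spanned a wider range, from 57.1% at Senp1 and 60.8% at Senp5 to 72.1% at Sumo3, 74.3% at Sumo2 and 77.1% at Senp6. The ranges overlap, and Sumo2, Sumo3 and Senp6 were above every listed gene with a peak. The CpG ratio, observed over expected from the base composition, ran from 0.71 (Uba2) to 1.09 (Sae1) with a peak and from 0.683 (Senp5) to 1.08 (Sumo3) without. Over all genes the medians were 65.3% GC and a ratio of 0.883 with a promoter peak, and 57.9% and 0.564 without. Every listed gene without a peak had a CpG ratio above that last median, and Senp1 alone was below the GC median.

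**Figure D4:**
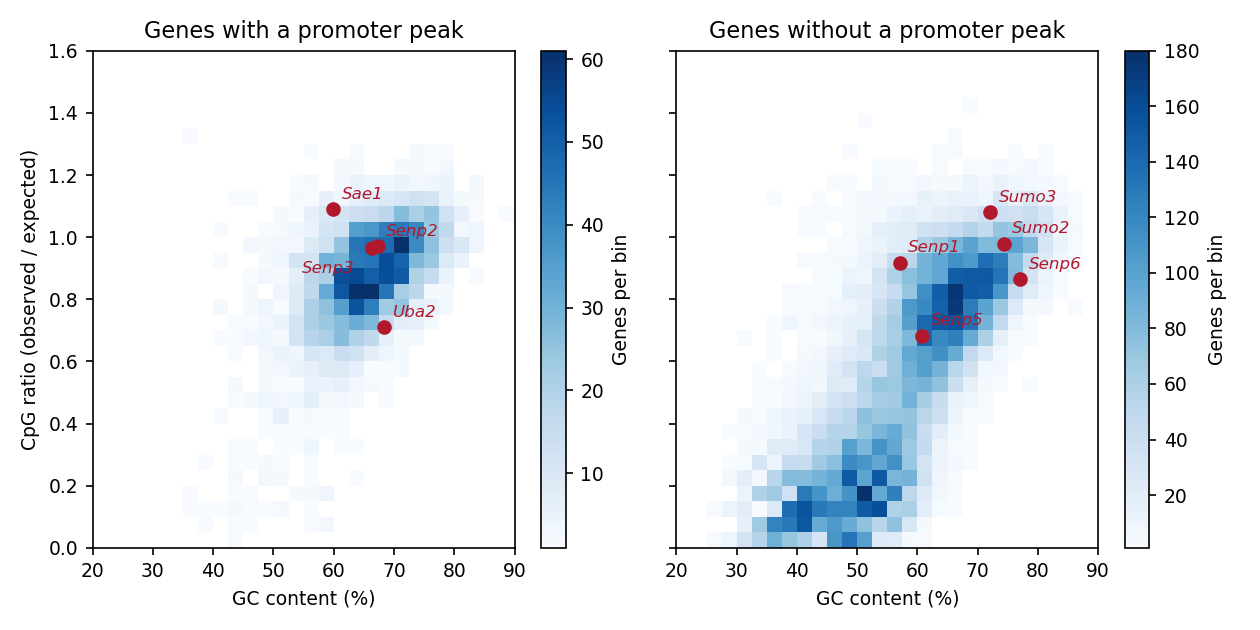
GC content (%) against CpG ratio within 200 bp of the most upstream start, for protein-coding genes with (left) and without (right) a promoter peak; colour is the number of genes per bin, on a separate scale in each panel, and red points are the listed genes. All 9 listed genes lie in the CpG-rich part of the plot, with ratios from 0.683 to 1.09.

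Short strings known from other factors' sites were searched on both strands in the promoters of 300 bases. The GC box GGGCGG was present at Sumo2, Sumo3, Uba2, Senp2, Senp3 and Senp6 (6 of 8), against 50.7% of all genes in the table and 75.9% of those with a promoter peak. CCGGAA, the core of ETS factor sites, was present at Sumo3, Uba2, Senp1 and Senp5, against 21.4% of all genes and 37.2% of those with a promoter peak. ATGGCG, the YY1 core, was present at Uba2, Senp2 and Senp3, the 3 matched genes with a peak, and at none of the 5 without, against 12.5% of all genes and 21.0% of those with a promoter peak. CCAAT was present at Sumo2 and Senp3, against 42.6% and 38.8% in the same order. The E-box CACGTG was present at none of the 8 listed genes searched, against 9.16% and 13.1%. TGCGC, 1 arm of the palindrome with which it overlaps, was present at 6 of 8, all but Senp5 and Senp6, against 41.9% of all genes and 90.8% of those with a promoter peak. A match says that the letters are there, and the absence of a match concerns only this window. Several strings were searched at only 8 genes after the data had been seen, so the split at ATGGCG is a description and was not tested.

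Of 15 other genes of the pathway, 7 had a promoter peak, beside 13.4% of all protein-coding genes. Of the 12 with a CpG-rich start 5 had one, beside 23.5% of all genes with such a start. Senp7 was not among the 12, because its most upstream start, away from the start at its peak, is not CpG-rich. All of these counts include Senp8, which belongs to the Senp family by sequence name but acts on another modifier, as given below. The 15 genes are only some of the rest of the pathway, so no share was read from the count. Of 7 ligases, Pias1 (fold enrichment 14.9) and Pias4 (9.22) had one, and Pias2, Pias3, Ranbp2, Nsmce2 and Zfp451 did not. Rwdd3, which enhances conjugation, had none.

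With Senp7 and Senp8, 4 of the 7 Senp genes had a promoter peak (57.1%, beside 13.4% of all genes), and so did 3 of the 6 with a CpG-rich start (beside 23.5%). The 6 leave out Senp7, scored at its most upstream start, 56057530, although its peak lies at the start at 56075480. Senp7, the closest relative of Senp6, had one 15 bp before a start with a fold enrichment of 7.51, the lowest of the 11, whereas Senp6 had none. Senp8, which acts on the related modifier NEDD8 and not on SUMO, had one 150 bp before its start with a fold enrichment of 23.6, the highest of the 11. The start of Myo9a lies 525 bp away on the opposite strand and shares the Senp8 peak. Outside the Senp family, the peptidases Desi1 (9.77, shared with Xrcc6) and Uspl1 (18.2) had a promoter peak. The summit nearest Desi2 (9.94) lay 116 bp after its start, just past the window. Of the ligases that add ubiquitin to SUMO-bearing proteins, Rnf111 (18.4) had a promoter peak and Rnf4 did not.

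For comparison with Uba2, Senp2 and Senp3, the best copy near the summit is printed for the 5 of these genes whose site the promoter table holds, in the same form, with their positions chr16:56075409-56075438 (plus strand) for Senp7, chr9:59750784-59750813 (minus strand) for Senp8, chr9:62980875-62980904 (minus strand) for Pias1, chr9:70503835-70503864 (minus strand) for Rnf111 and chr15:82016208-82016237 (minus strand) for Desi1.
Senp7: gacgactagtGCGCAAGCGCgaatctcact
Senp8: cgggctgcctGCGCTTGCGCggacacgcct
Pias1: gagcttcattGCGCTTGCGCtgacagacgc
Rnf111: tccctggcccGCACATGCGCagacatactg
Desi1: agcaccgaacGCACATGCGTgaaagtgcgt

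The first 4 depart by 1 base: T6A at Senp7, A5T at Senp8 and Pias1, and G3A at Rnf111. Desi1 carries G3A and C10T, a mismatch in each arm as at Sumo2 and Senp5, and unlike them it had a promoter peak. At Senp7, Senp8 and Pias1 the change falls on a central base, and the 10 bases of these 3 genes are the same site read from opposite strands. Of the 148 genes in the promoter table with these bases and no better copy, 117 had a promoter peak (79.1%, Wilson interval 71.8 to 84.8). At Senp2, by contrast, the change falls in the outer part of the right arm, and the central bases are intact.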

How the data were processed

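NRF1 ChIP-seq of wild-type mouse skeletal muscle was analysed from 1 deposited list of 3226 narrow peaks. According to the methods, the authors mapped single-end reads to mm10 with Bowtie, kept uniquely mapped reads, removed reads in blacklisted regions (the list named belongs to a human build) and called peaks with MACS2 against input DNA. The broad option is named there, whereas the deposited list has narrow-peak columns. Each peak carries the authors' fold enrichment (a ratio of summit signal to control background), p-value and q-value on the −log10 scale, a score and a summit. The deposited score repeats the q-value and was not used further. The largest q was 0.048, above the limit on false discovery that the methods state, and the study counts another number of sites, so the list analysed here may differ from its own. The list does not give read depth, on which the weakest callable site depends. Removal of duplicate reads limits the signal of the strongest peaks, unique mapping lowers that of repeats, and the local depth of the control enters every fold enrichment.

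Starts were those of 45756 known RefSeq transcripts of GRCm38, the assembly of mm10. Promoters reached from 1000 bp upstream of a start to 100 bp downstream. Both strands were searched for the palindrome up to 100 bp from each summit, allowing 1 mismatch in the main setting, and in RefSeq promoters (250 bases before to 50 after a start, of 16853 genes). Wilson 95% intervals cover counting error over genes only, and paralogous genes are not independent. Scripts used Python 3.11.15, numpy 2.4.6, pandas 2.3.3, pysam 0.24.0 and scipy 1.17.1 and were tested on simulated data. The members and the list of other pathway genes were chosen with earlier results of these data known, so counts were described and not tested. All 9 genes were named, then the other pathway genes with or without a peak, and genes starting within 1000 bp of a listed gene or sharing its peak. The genes at the nearest summits fall outside this rule. The split of mismatches by arm, the search for the same 10 bases, the short strings, the CpG-rich background and a GENCODE annotation were added after the data had been seen. Some genes of the pathway list are not reported here and enter no count of it. Peaks hold no expression, so the tissue label could not be checked against marker genes.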

Additional observations from a re-analysis of the deposited data

How the results depend on the processing

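The same 4 listed genes, Sae1, Uba2, Senp2 and Senp3, had a promoter peak under 6 other windows, thresholds or transcript sets and under GENCODE basic transcripts, and the other pathway genes counted 7 or 8, Desi2 being the gene added. The percentage of all protein-coding genes with a promoter peak, 13.4 in the main setting, was 14.1 with 500 bp to either side of a start, 14.7 with 2000 bp before to 500 bp after, 14.2 with any overlap, 12.8 with q of at most 1e-05, 12.8 with a fold enrichment of at least 5, 13.9 with predicted transcripts included and 23.5 over CpG-rich starts. The palindrome was found near the summit at 2 of the 4 listed genes with at most 1 mismatch, at 0 with no mismatch and at 4 with at most 2, and windows of 50 or 200 bp left the count at 2. Predicted transcripts moved the distances of Sae1, Uba2, Senp2 and Senp6, to +49, −15, −78 and −272992 bp. Over 500 bp to either side of the start, GC content moved by more than 10% at 2 genes and the CpG ratio at 5. No paired analysis was possible because the peaks came as 1 list without values per replicate, and for the same reason no replicate could be left out. The list gives no read depth, and weaker occupancy at Sumo2, Sumo3, Senp1, Senp5 and Senp6, if present, would not show among called peaks. Without values per replicate, a false peak in the list could not be told from a true one either.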
